A study of Mus musculus with 2 samples.

Results

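The semaphorins, plexins, neuropilins, ephrins, Eph receptors, Slits, Robos, netrins and Unc5 receptors were followed in RNA of mouse ureters at postnatal day 4. Members were taken by gene symbol from the array design, which held 67 of them on 96 probes, out of 29924 gene names on the array. Of the 67, 63 passed the filter on dim probes and were tested, and 4 did not. The study hybridized 2 two-colour arrays. On each, ureters of genotype Tbx18(cre/+);Rbpj(fx/fx) (Rbpj-cKO) were set against ureters of genotype Tbx18(+/+);Rbpj(fx/n.d.) (control), both on the NMRI strain. In the first of these genotypes 1 Tbx18 allele carries cre, so the groups differ in Tbx18 as well as in Rbpj, and the control still carries a floxed Rbpj allele. Array 1 was labelled as a female pair and array 2 as a male pair with the dyes exchanged. The sources used here do not say how many animals stood behind each RNA or whether they were pooled. The p-values therefore rest only on spreads between these 2 pairs, that of each gene moderated by those of all genes. Such spreads may be technical.

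Guidance molecules were named for steering growing axons, but they also act on vessels, epithelia and muscle. Secreted class 3 semaphorins signal through neuropilins and plexins, and most membrane-bound semaphorins bind plexins directly. Ephrins are themselves anchored in the membrane and bind Eph receptor tyrosine kinases on neighbouring cells, A-type ephrins mostly EphA and B-type mostly EphB receptors. Slits act through Robo receptors and netrins through Dcc, neogenin and Unc5 receptors, and in the urinary tract Slit2 and Robo2 are known for restricting the site of ureteric bud outgrowth. Rbpj binds DNA and passes Notch signals on to target genes.

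Each gene has a log2 ratio per array, with Rbpj-cKO in the numerator, and a normalized log2 level in each RNA. Rbpj stood at -0.92 on array 1 and -1.10 on array 2, and Tbx18 at 0.16 and 0.01. The arrays do not show whether the Rbpj probes lie in the deleted part, so this does not settle the labels. On array 1, labelled female in both channels, the Y-linked genes Ddx3y and Eif2s3y had ratios of 4.23 and 4.26. On array 2 they had -0.54 and -0.19. The sex label of the Rbpj-cKO RNA of array 1 is thus not borne out. The 2 RNAs of array 1 may differ in sex as well as in genotype, which its ratios cannot tell apart. Results are given for both arrays. The muscle and urothelium expected of a ureter were present, since 11 of 11 smooth muscle and 11 of 11 urothelium markers were well above background in all 4 RNAs. Between 71.8% and 74.0% of gene spots were well above background in each channel, and the number of arrays, 2, limits the precision.

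Among the 63 tested members, each represented by its brightest probe, 2 stood out by size. In Rbpj-cKO ureters Sema5b stood at 0.481 of the control level and Slit2 at 1.58-fold, each with nearly the same ratio in both pairs. In bulk tissue, fewer cells of a type and less RNA per cell cannot be told apart. No member passed the adjusted threshold of limma (0 of 63, against 0.00473% of all 21150 genes tested), and the smallest adjusted p was 0.084, for Sema5b. At an unadjusted limma p below 0.05 there were 9 members higher and 5 lower, where the shares over all genes were 6.99% and 7.02%. With median centring in place of loess these counts were 4 higher and 4 lower, and the smallest adjusted p of a member in limma was 0.579. The shares over all genes were not counted under that setting. With limma's trend and robust settings, which called 46 genes higher and 49 lower among all genes, 2 members passed, Sema5b (adjusted p = 0.031) and Slit2 (adjusted p = 0.0465). Most members lay near 0, with 48 of the 63 having a mean log2 ratio within 0.2 of it.

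**Figure D1:**
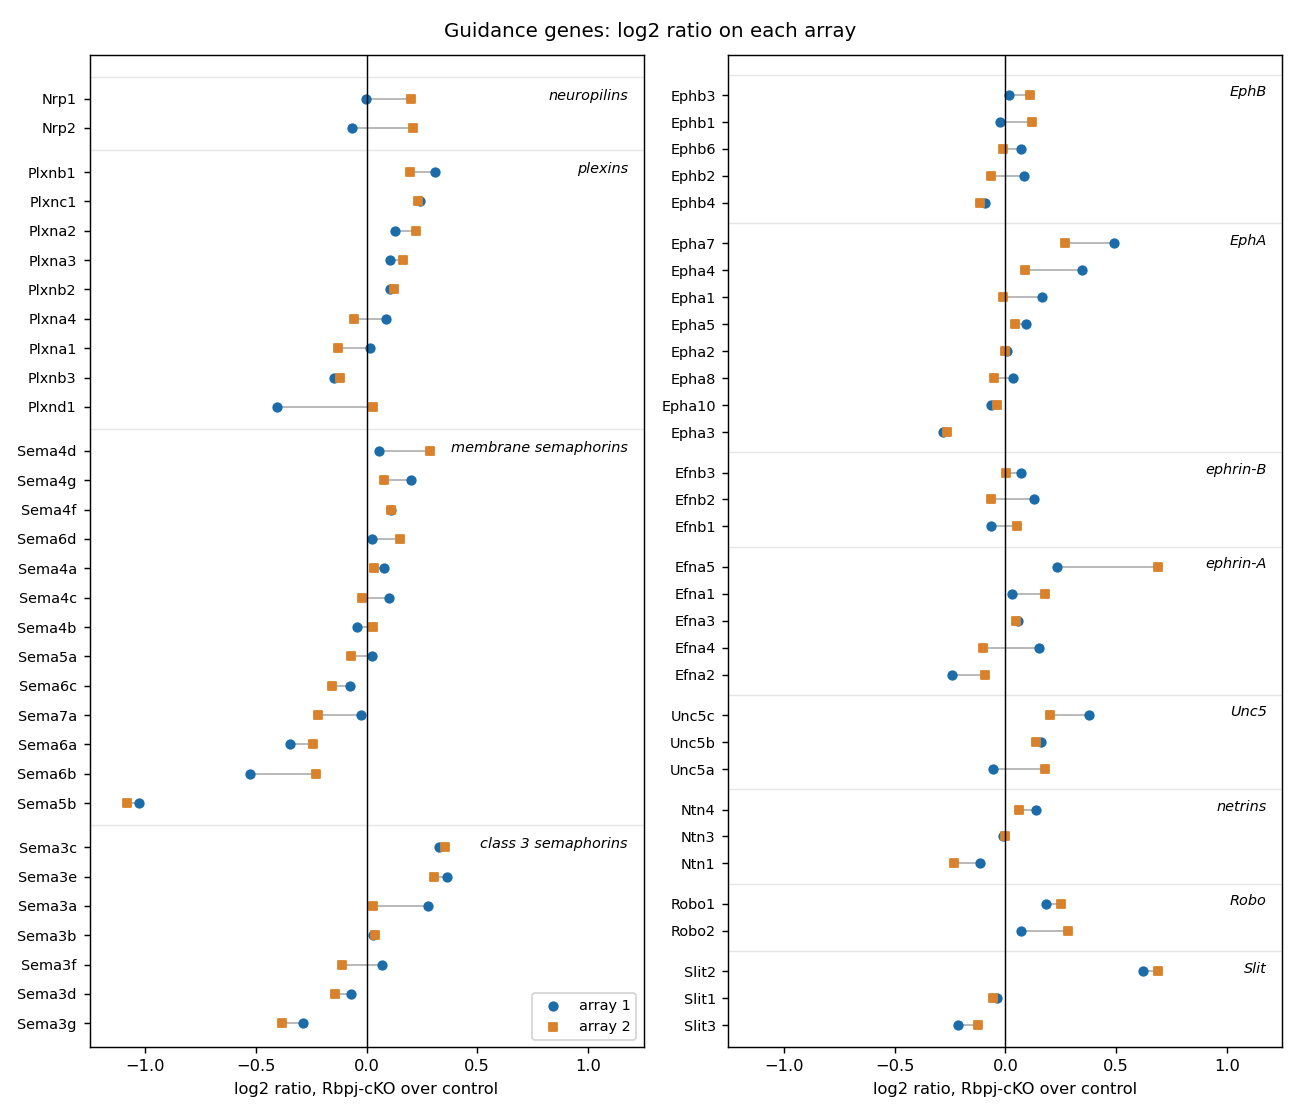
Log2 ratio (Rbpj-cKO over control) for each of the 63 tested members on array 1 (circles) and array 2 (squares), with a line joining the 2 values of a gene and members grouped by family. Sema5b lies at -1.03 and -1.08, Slit2 at 0.62 and 0.69, and most other members lie close to 0.

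Sema5b encodes a transmembrane semaphorin that carries thrombospondin repeats. Its normalized log2 level was 9.15 in the Rbpj-cKO RNA and 10.18 in the control RNA of array 1, and 9.17 and 10.25 on array 2. The 2 Rbpj-cKO levels nearly coincided and lay below both control levels, as in 20.8% of all genes. The log2 ratio was -1.05 ± 0.04 (SD, n = 2 arrays), or 0.481 of the control level, and the adjusted p in limma was 0.084. This was the single member at least 1.5-fold lower on both arrays (1 of 63, against 0.794% of all genes). The probe maps to chromosome 16, 35664281-35664340 (mm9). A second probe for the same transcript, at 35663660-35663719, gave -0.87 and -0.90. Another, dimmer probe at 35664618-35664677, assigned to a cDNA clone, gave -0.24 and -0.23. Its mean log2 intensity was 7.03, near the lowest level that was well above background (6.59). With the mean of all 3 probes the ratio of Sema5b became -0.73. The closely related Sema5a, by contrast, had 0.02 on array 1 and -0.07 on array 2.

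Slit2 encodes a large secreted ligand of the Robo receptors. Its normalized log2 level was 12.49 in Rbpj-cKO and 11.87 in control RNA on array 1, and 12.43 and 11.74 on array 2. Both Rbpj-cKO levels lay above both control levels (as in 22.3% of all genes), by more than the distance between the 2 controls. The ratio was 0.66 ± 0.05 (SD, n = 2 arrays), or 1.58-fold, with an adjusted p of 0.116 in limma. It was measured by 1 probe, on chromosome 5 at 48696673-48696732 (mm9). By the brightest probes Slit2 was the single member at least 1.5-fold higher on both arrays (1 of 63, against 0.402% of all genes). With median centring in place of loess it no longer reached 1.5-fold on both arrays (0 of 63 members). A dimmer probe of Epha5, which does not enter these counts, also reached 1.5-fold on both arrays, with 0.62 and 0.60.

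The other Slits did not share this direction. Slit3 had -0.22 and -0.12, and Slit1, a dim gene, -0.04 and -0.06. Of their receptors, Robo1 had 0.18 on array 1 and 0.25 on array 2, with levels of 12.37 and 12.47 in Rbpj-cKO against 12.19 and 12.22 in control RNA (adjusted p = 0.332). The 2 groups did not overlap, but 22.3% of all genes had both Rbpj-cKO levels above both control levels. A dim second Robo1 probe gave 0.13 and 0.06. Robo2, the Robo receptor known from bud outgrowth, had 0.07 and 0.28, and its 3 probes had means between 0.08 and 0.18. Robo3 was not well above background in any of the 4 RNAs and was not tested. Robo4, the endothelial Robo, is no member under the symbols used and had 0.04 and 0.25.

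**Figure D2:**
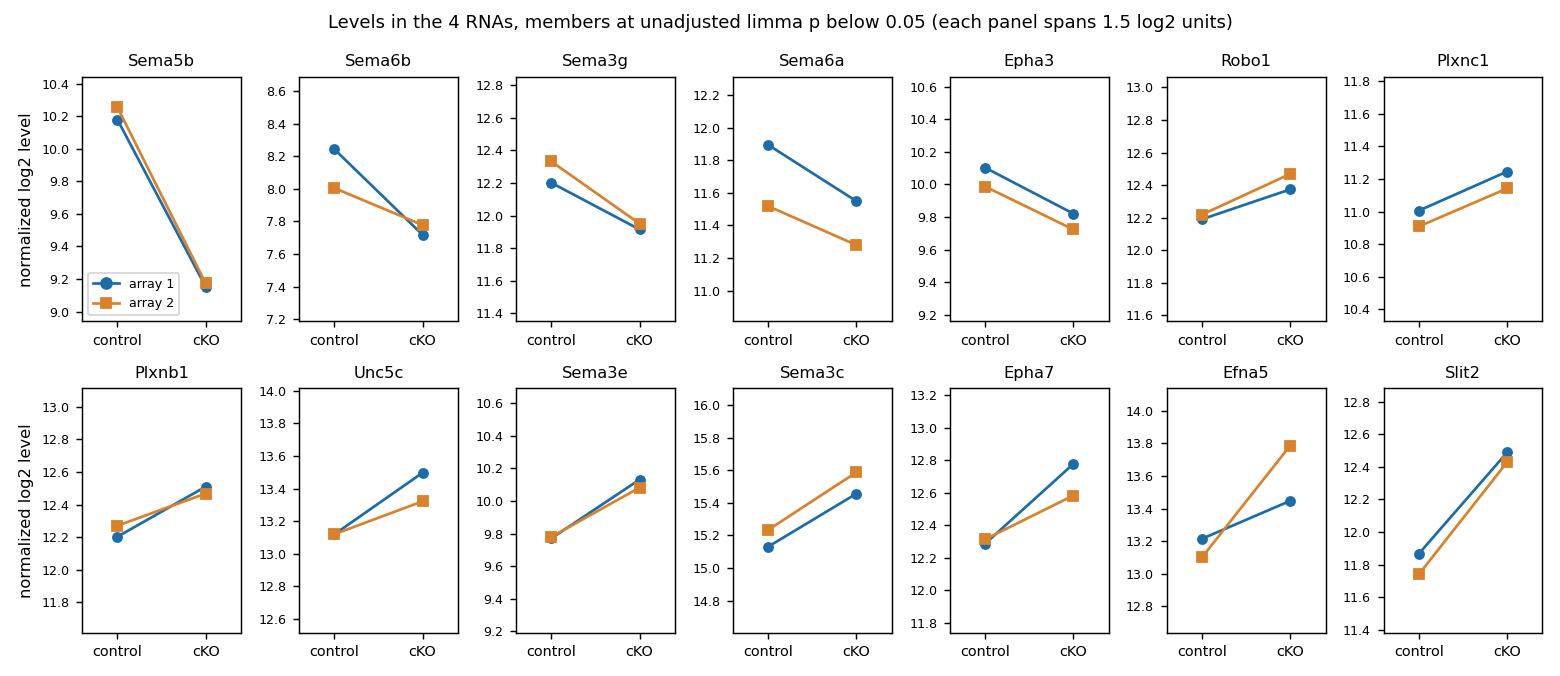
Normalized log2 levels in the control and Rbpj-cKO RNA of array 1 (circles) and array 2 (squares) for the 14 members at an unadjusted limma p below 0.05, each panel spanning 1.5 log2 units around its own mean. In 13 of the 14 panels the Rbpj-cKO and control levels do not overlap. Of all genes tested, 22.3% had both Rbpj-cKO levels above both control levels and 20.8% below. The 14 were chosen by p on the same ratios, so their separation is no further evidence. In Sema6a the arrays lie apart and the levels overlap although both lines slope down.

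Because the targeted gene encodes a DNA-binding protein, the promoters of members at the ends of the list are shown, together with those of the members below an unadjusted p of 0.05 that hold the core letters of known RBPJ sites. The sequences are the 250 bases before the annotated start in RefSeq (GRCm38.p6), written 5′ to 3′ on the strand of the gene, and capitals mark TGGGAA, searched on both strands and with no other motif. Those of Sema5b (chr16:35541112-35541361, plus strand) and Slit2 (chr5:47982905-47983154, plus strand) have no match, so nothing is in capitals. Epha7 (chr4:28812881-28813130, plus strand) and Plxnc1 (chr10:94944846-94945095, minus strand) have 1 match each.
Sema5b: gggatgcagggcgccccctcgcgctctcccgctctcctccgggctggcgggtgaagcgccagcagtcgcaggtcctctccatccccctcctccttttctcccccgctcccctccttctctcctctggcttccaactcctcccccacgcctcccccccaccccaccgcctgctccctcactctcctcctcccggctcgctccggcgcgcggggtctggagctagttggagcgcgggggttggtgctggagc
Slit2: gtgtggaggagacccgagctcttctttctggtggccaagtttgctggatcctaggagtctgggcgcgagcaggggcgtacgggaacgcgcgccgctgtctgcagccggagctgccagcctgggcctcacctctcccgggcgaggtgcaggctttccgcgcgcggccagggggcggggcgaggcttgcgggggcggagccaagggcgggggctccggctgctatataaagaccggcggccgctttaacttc
Epha7: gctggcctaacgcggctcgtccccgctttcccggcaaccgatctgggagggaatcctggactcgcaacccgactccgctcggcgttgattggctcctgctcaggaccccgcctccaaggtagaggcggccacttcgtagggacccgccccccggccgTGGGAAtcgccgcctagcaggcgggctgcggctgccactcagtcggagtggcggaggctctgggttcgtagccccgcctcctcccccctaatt
Plxnc1: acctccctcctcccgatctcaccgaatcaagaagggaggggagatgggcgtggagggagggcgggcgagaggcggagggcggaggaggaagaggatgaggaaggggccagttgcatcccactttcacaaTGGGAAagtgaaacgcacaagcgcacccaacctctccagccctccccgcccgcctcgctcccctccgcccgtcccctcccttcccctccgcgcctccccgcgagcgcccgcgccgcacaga
The match begins 93 bases before the start in Epha7 and 121 bases before it in Plxnc1. Of the 58 members with an entry in the promoter table, 12 (20.7%) had TGGGAA in at least 1 such window, against 24.1% of the 27025 genes in the table. Counted by window, 17.6% of the 74 member promoters held it, against 21.6% of all 32851. Of the 13 matched members at an unadjusted p below 0.05, 2 held it. A match is a description of letters and not a binding site, and windows without one say nothing of RBPJ elsewhere at the gene.

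The class 3 semaphorins, the secreted branch, went both ways. Of the 7 members, 4 were higher and 2 lower on both arrays. Sema3c, known from outflow tract and vessel development, had levels of 15.46 and 15.59 in Rbpj-cKO RNA against 15.13 and 15.23 in control RNA. These did not overlap (22.3% of all genes in this direction), and the ratios of 0.33 and 0.35 gave a mean of 0.34 ± 0.02 (adjusted p = 0.215 in limma). Its second probe gave 0.30 and 0.10. Sema3e, which signals through Plxnd1 without a neuropilin, had levels of 10.13 and 10.08 against 9.77 and 9.78, and ratios of 0.36 and 0.30 (adjusted p = 0.224). Sema3g had the opposite direction, with 11.92 and 11.95 against 12.20 and 12.33, and ratios of -0.29 and -0.38 (adjusted p = 0.228).

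Sema3a, a repellent of sensory and sympathetic axons, had 0.28 on array 1 and 0.03 on array 2. Sema3d had -0.07 and -0.14, and Sema3b and Sema3f lay within 0.11 of 0 on each array. By the coordinates of the probes, Sema3d, Sema3a, Sema3e and Sema3c lie in this order on mouse chromosome 5 (mm9, starts 12586981, 13602462, 14256598 and 17235981). The mean ratios in that order were -0.11, 0.15, 0.33 and 0.34, so neighbours on the chromosome did not all have one direction.

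Of the 13 membrane semaphorins, both arrays had 5 higher and 5 lower (31.8% and 29.8% of all genes). The 3 of these 13 at an unadjusted p below 0.05 were all lower (7.02% of all genes were lower at that p, and 6.99% higher). Beside Sema5b these were Sema6b and Sema6a, transmembrane ligands of A-type plexins. Sema6b had levels of 7.72 and 7.78 in Rbpj-cKO RNA against 8.24 and 8.005 in control RNA. These did not overlap (20.8% of all genes in this direction). The ratios of Sema6b were -0.53 on array 1 and -0.23 on array 2 (adjusted p = 0.272 in limma). Sema6a had -0.35 and -0.24 (adjusted p = 0.266), but its levels overlapped between the groups because the arrays differed. Its second probe gave -0.11 and -0.18. Sema6c had -0.08 and -0.15 and Sema7a, the GPI-anchored semaphorin, -0.02 and -0.22. Sema4d, a ligand of Plxnb1, had 0.06 and 0.29, Sema4g 0.20 and 0.08, Sema4f 0.11 and 0.11, and Sema6d 0.03 and 0.15. Sema4a, Sema4b, Sema4c and Sema5a lay within 0.11 of 0 on each array.

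The plexins, the receptors of the semaphorins, had 5 of 9 members higher and 1 lower on both arrays (31.8% and 29.8% of all genes). Plxnb1, the receptor of Sema4d, had levels of 12.51 and 12.47 in Rbpj-cKO RNA against 12.20 and 12.27 in control RNA and ratios of 0.31 and 0.20 (adjusted p = 0.300). Plxnc1, the receptor of Sema7a, had levels of 11.25 and 11.14 against 11.01 and 10.91. Its ratios were 0.24 and 0.23 (adjusted p = 0.301), and a dimmer probe gave 0.16 and 0.01. Plxna2, Plxna3 and Plxnb2 followed with means of 0.17, 0.13 and 0.12. Plxnb3 was lower on both, at -0.14 and -0.12, and Plxna1 and Plxna4 had opposite signs on the 2 arrays, with means of -0.06 and 0.02. Plxnd1, the receptor of Sema3e in endothelium, had -0.40 on array 1 and 0.03 on array 2. Its second probe was lower on both arrays, at -0.28 and -0.06, so the opposite signs rest on the brightest probe. The neuropilins are co-receptors of class 3 semaphorins and of VEGF. Nrp1 had 0.00 on array 1 and 0.20 on array 2, and the brightest Nrp2 probe -0.06 and 0.21. A second Nrp2 probe, for another transcript variant, was higher on both arrays, at 0.26 and 0.19.

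Among the ephrins, Efna5 had the highest ratio. Its levels were 13.45 and 13.79 in Rbpj-cKO RNA against 13.21 and 13.10 in control RNA, which did not overlap (22.3% of all genes in this direction). The ratio was 0.23 on array 1 and 0.69 on array 2, so its mean of 0.46 ± 0.32 (SD, n = 2 arrays; adjusted p = 0.284) depends on which array is taken. The single probe lies on chromosome 17 at 62954177-62954236 (mm9). The other A-type ephrins were nearer to 0, from Efna2 at -0.24 and -0.09 to Efna1 at 0.03 and 0.18. The B-type ephrins had mean ratios between -0.01 and 0.04. Efnb2, a marker of arterial endothelium and a known Notch-responsive gene there, had levels of 13.94 and 13.76 in Rbpj-cKO against 13.81 and 13.83 in control RNA. The groups overlapped, the ratios were 0.13 and -0.07, and its second probe had the other sign in the mean (-0.02 against 0.03).

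Of the EphA receptors, which bind Efna5, 3 of 8 tested were higher and 2 lower on both arrays. Epha7 had levels of 12.78 and 12.58 in Rbpj-cKO RNA against 12.29 and 12.31 in control RNA. Its ratio was 0.38 ± 0.16 (adjusted p = 0.239), and its other probes, assigned to a second transcript variant, had means of 0.31 and 0.43, so all 3 probes were higher on both arrays. Epha3 was the lowest of the group, with 9.82 and 9.72 against 10.10 and 9.99, and ratios of -0.28 and -0.26 (adjusted p = 0.269). Epha4, which binds ephrins of both types, had 0.35 and 0.09. Epha1 had 0.17 and -0.01, Epha2 lay within 0.01 of 0 on each array, and Epha8 and Epha10, both dim, had means of -0.01 and -0.05.

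The 3 probes of Epha5 differed. The brightest, on chromosome 5 at 84487348-84487407 (mm9), gave 0.09 and 0.04 and represents the gene in the counts. The probe at 84483837-84483896, for the same transcript, gave 0.85 and 0.47. The probe at 84494886-84494945, for an Ensembl transcript, gave 0.62 and 0.60, at least 1.5-fold higher on both arrays. The dimmer pair of probes thus had means of 0.66 and 0.61. For these 3 probes the SD over replicate spots was at most 0.09, well under the distance between them and the brightest. With the mean of all 3 probes Epha5 had 0.45 (adjusted p = 0.189), against 0.07 (adjusted p = 0.759) with the brightest. Which transcripts the probes detect was not determined here.

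**Figure D3:**
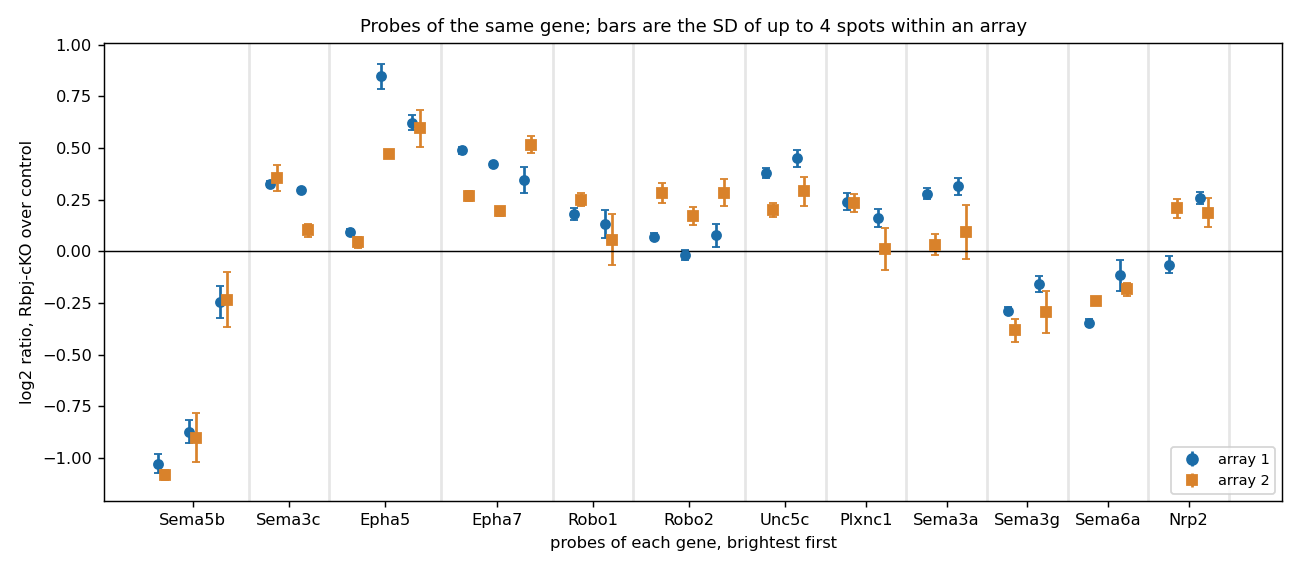
Log2 ratio (Rbpj-cKO over control) for each probe of 12 members with several probes, ordered from the brightest to the dimmest within a gene, on array 1 (circles) and array 2 (squares), with the SD of up to 4 spots as bars. The third probe of Sema5b lies at -0.24 and -0.23 while the others lie near -1, and the brightest probe of Epha5 lies near 0 while the others lie between 0.47 and 0.85.

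The EphB receptors were nearly level. Of the 5 members, 1 was higher and 1 lower on both arrays (31.8% and 29.8% of all genes). Mean ratios ran from -0.10 for Ephb4, the venous receptor of Efnb2, to 0.06 for Ephb3. Ephb1, Ephb2 and Ephb6 lay between them at 0.05, 0.01 and 0.03. Ephb4 had -0.09 and -0.12, with levels of 12.33 and 12.35 in Rbpj-cKO against 12.42 and 12.47 in control RNA. The netrins were close to level too. Ntn1 had -0.12 and -0.23, Ntn4, a laminin-binding netrin of basement membranes, 0.14 and 0.06, and Ntn3 lay within 0.02 of 0. The dim second probe of Ntn1 gave 0.00 and -0.56, so its pairs differed far more than those of the bright probe.

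Unc5 receptors of netrins were higher on both arrays in 2 of 3 tested members (31.8% of all genes). Unc5c had levels of 13.50 and 13.32 in Rbpj-cKO RNA against 13.12 and 13.12 in control RNA. Its ratios were 0.38 and 0.20 (adjusted p = 0.288), and its second probe gave 0.45 and 0.29. Unc5b, known from vessel sprouting, had 0.16 and 0.14, and Unc5a -0.06 and 0.18. Epha6, Ntn5, Robo3 and Unc5d failed the filter on dim probes, with no spot well above background in either genotype, so no ratio is given for them.

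By role, 13 of the 29 tested receptors stood higher and 4 lower on both arrays. The remaining 12 had opposite signs. Of the 34 tested ligands 15 were higher, 12 lower and 7 opposite. Over both roles 28 of 63 (44.4%) were higher on both arrays, against 31.8% of all genes, and 16 (25.4%) lower, against 29.8%. The median ratio of the members was 0.04, against 0.00 over all genes tested. Both Rbpj-cKO levels lay above both control levels in 21 members (33.3%, against 22.3% of all genes) and below them in 9 (14.3%, against 20.8%). No member was at least 1.5-fold changed in opposite directions (0 of 63, against 0.104% of all genes). Across the 63 members the ratios of the 2 arrays had Pearson's r = 0.793 and Spearman's rho = 0.658, and Pearson's r was 0.636 over the 61 other than Sema5b and Slit2. Over all genes tested Pearson's r was 0.454. These are correlations across genes that share the same 4 RNAs and are given as a description, as genes are not independent replicates.

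Partner molecules and inner effectors of the same pathways were taken from lists of known genes. For comparison, both arrays had 31.8% of all genes higher and 29.8% lower, with 6.99% and 7.02% at an unadjusted p below 0.05. Of 25 tested partners and further ligands, 7 were higher and 13 lower on both arrays, with 1 higher and 4 lower at an unadjusted p below 0.05 and 0 at the adjusted threshold of limma. The highest was Flrt2, an adhesion protein that binds Unc5 receptors and latrophilins, with 0.59 and 0.60 (adjusted p = 0.13). The lowest were the VEGF receptors Flt1, with -0.50 and -0.30, and Kdr, with -0.65 and -0.11, followed by the latrophilin Adgrl3 with -0.25 and -0.37. The netrin and repulsive guidance molecule receptor Neo1 had 0.09 and 0.12, and its ligands Rgma and Rgmb had -0.50 and -0.07, and -0.08 and -0.47. Dcc, the attractive netrin receptor, had 0.14 and -0.13. Of 42 effectors, 16 were higher and 11 lower on both arrays, with 3 and 3 at an unadjusted p below 0.05 and 0 at the adjusted threshold. Ablim3, an actin-binding LIM protein, had -0.97 and -0.38. Mical2 and Mical1, enzymes that oxidize actin downstream of plexins, went opposite ways, with -0.26 and -0.34 for Mical2 and 0.30 and 0.29 for Mical1. Chn1, a GTPase-activating protein of Eph signalling, had -0.28 and -0.22, Sh2d3c, an adaptor of Eph receptors, -0.36 and -0.09, and Rnd3 0.27 and 0.17.

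Markers of several cell types differed between the same RNAs. For comparison, 31.8% of all genes were higher and 29.8% lower on both arrays. Endothelium markers, of which Kdr is one and so counted in both lists, were lower on both arrays in 10 of 15, with medians of -0.18 on array 1 and -0.10 on array 2. Their summed linear level was 138846 and 139411 in the Rbpj-cKO RNAs against 175098 and 148945 in the controls. Smooth muscle markers were lower on both arrays in 8 of 11 (summed level 725413 and 653435 against 741814 and 848368), and pericyte markers in 6 of 8 (93127 and 86932 against 113443 and 108828). Nerve and Schwann cell markers were lower in 5 and higher in 4 of 12, with 73312 and 86732 against 90252 and 97949. Fibroblast markers were higher in 6 of 9, with 675869 and 674558 against 573809 and 598806. Kidney epithelium markers were higher in 6 of 8, with 3976 and 3096 against 2384 and 2479, and Nphs1 and Slc12a1 of that list were not above the filter. Urothelium and mesothelium markers were higher in 7 of 11 and 4 of 6. Both of these lists hold Upk3b, counted as higher in each, and Krt19, with 0.10 and -0.08. Erythroid and skeletal muscle markers were lower in 7 of 8 and 5 of 7. Macrophage markers were lower in 2 and higher in 1 of 8. Hepatocyte markers had opposite directions in the pairs, with medians of 0.60 and -2.66. Adipocyte markers were lower in 13 of 13, with medians of -2.75 and -1.12 and summed levels of 152681 and 164951 against 892615 and 329596. The part of these cell types in the ratios of the guidance genes was not tested.

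**Figure D4:**
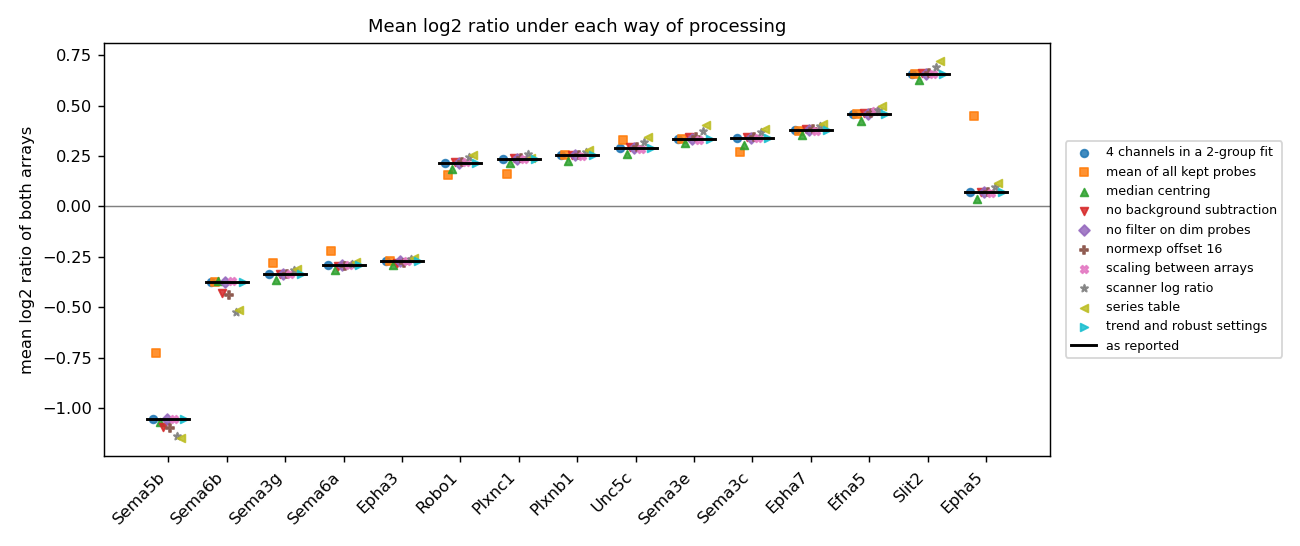
Mean log2 ratio of both arrays for the 14 members at an unadjusted limma p below 0.05 and for Epha5, as reported (black bars) and under 10 other ways of processing (symbols). The symbols keep to one side of 0 for each gene, and the 2 largest shifts come from averaging all probes, which brings Sema5b to -0.73 and Epha5 to 0.45.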

How the data were processed

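RNA of ureters was measured on 2 two-colour arrays, each with 157716 gene spots and 4 spots per probe of 60 bases. Spot intensities were deposited as Agilent Feature Extraction 10.7.3.1 wrote them, per the submitters' processing notes. The deposited log ratio of the scanner software, red over green, is log10 by Agilent's definition. Per the labels' protocols, 1000 ng of total RNA were amplified and labelled. The authors' deposited series table holds a score read as signed fold changes, since none lay between -1 and 1; how it was centred is unknown, and it served only as an alternative.

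Background was corrected by normexp (offset 50) on the mean signals, followed by within-array loess in which control spots had weight 0. Outlier-flagged spots (3.34% and 3.12%) were dropped, and the channel labels gave each ratio its direction, with control as the denominator. The replicate spots were averaged. Probes stayed in if, in at least 1 genotype, over 50% of spots exceeded background clearly on each array, as 28182 of 39429 did, and the brightest kept probe represented a gene. Levels of the 4 RNAs were set on one scale between arrays by quantile normalization of the mean intensities (Aquantile), which leaves the ratios as they are. Names outside the guidance genes came from a RefSeq match (GRCm38.p6) of 28328 probes.

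The ratios of all 21150 genes were tested against 0 with limma 3.58.1 in R 4.3.3 (lmFit and eBayes, two-sided, Benjamini-Hochberg at 0.05), with 1 residual degree of freedom per gene, raised to 4.35 by the prior. SDs are between the 2 arrays. The members and lists were chosen with earlier results of these data known. Any member may be named, with full values for those at least 1.5-fold changed on both arrays or at an unadjusted p below 0.05 with a mean of at least 0.4 in size, and values for those whose probes differ in sign, and of the partner lists up to 6 with the largest mean; Robo4, Neo1 and Dcc were named after their values were seen.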

Additional observations from a re-analysis of the deposited data

How the results depend on the processing

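Of the 63 members tested, the 14 at an unadjusted p below 0.05 kept their direction under each of the 10 other ways of processing. With trend and robust settings, with 4 unpaired channels and without the filter on dim probes, the mean ratio was the same by construction. Scaling between arrays only multiplied the ratios of an array by a positive factor, and each of the 14 had the same sign on both arrays. Averaging probes changed nothing for members with 1 probe, such as Slit2 and Efna5. Direction could therefore not change in any of these cases, and the 14 had been chosen by p in these data. Their p was not kept. With median centring 4 members were higher and 4 lower below 0.05, instead of 9 and 5, with no share over all genes counted. Sema5b ranged from -1.15 to -0.73 with adjusted p between 0.031 and 0.579 in limma, and Slit2 from 0.63 to 0.72 with adjusted p between 0.0465 and 0.579. The count of members called by limma was 0 under 9 of the 10 other ways and 2 with trend and robust settings. The count at least 1.5-fold higher on both arrays was 0 instead of 1 with median centring. The median ratio of the members, 0.043 as reported, was 0.023 with median centring, 0.062 with the scanner's log ratio and 0.079 with the series table, where the median of all genes was -0.016, 0.021 and 0.027. With 1 array left no test can be run. On one array alone 1 to 2 members were at least 1.5-fold higher and 1 was as much lower, 35 to 40 were higher, 23 to 28 were lower, and the median was between 0.031 and 0.055. Of all 21150 genes, 202 on array 1 and 258 on array 2 were at least 1.5-fold higher. As much lower were 783 on array 1 and 292 on array 2. The median of all genes was -0.009 on array 1 and 0.012 on array 2. The ratio within an array already pairs the RNAs. Taking the 4 channels as unpaired samples, with no replicate block, called 0 members (Sema5b adjusted p = 0.0731). Averaging the probes of a gene moved Epha5 from 0.07 to 0.45. Signal limits the dim genes: Epha8 (mean log2 intensity 6.93) and Epha10 (6.84) lay near the lowest level well above background (6.59).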
